A study of Mus musculus with 13 samples.

Results

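Wheat germ agglutinin (WGA) beads were used to pull glycosylated RNA out of total RNA, and the captured RNA of primary mouse neutrophils was compared with that of differentiated HOXB8 cells. All 18385 unique sequences of the deposited small RNA table were taken, in the WGA libraries of the neutrophils and of the differentiated HOXB8 cells. These are 2 of the 13 samples of the series and 2 of its 9 small RNA libraries. The neutrophils were freshly isolated from the bone marrow of wild-type mice, with a treatment field of N/A, and the age, sex and number of the mice are not given in the sources used here. HOXB8 cells are a myeloid progenitor line, held undifferentiated with 1 µM estradiol and grown with 100 ng/ml stem cell factor (SCF), and the differentiated cells were cultured in the same medium without estradiol. The protocol text, which stands with the neutrophil samples too, gives 36 hours of labelling with 100 µM Ac4ManNAz, 10 µM Gal and 100 µM GalNAc, and no source says which WGA samples came from labelled cells. The matched inputs were gel-purified RNA under 300 nt, and no such size limit is given for the WGA samples. Each kind of sample was 1 library, so no difference below has a replicate check or a test, and every interval covers counting error only.

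WGA is a plant lectin that binds sialic acid and N-acetylglucosamine, and RNA that it retains is taken to carry glycans or to travel with molecules that do. Reads of small RNA libraries are often pieces of longer RNAs, so the ends of a read show where that RNA was cut or where copying into cDNA stopped. In mature ribosomes the 18S, 5.8S and 28S rRNAs come from one 45S precursor whose spacers are removed.

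The neutrophil WGA library held 9922659 reads, of which 89.96% were in the table, and the differentiated HOXB8 WGA library 8537327 reads, of which 96.7% were in the table. A single read was worth 0.101 RPM (the reads of a sequence scaled to a library of 1000000 reads) in neutrophil WGA and 0.117 RPM in differentiated HOXB8 WGA. The neutrophil and differentiated HOXB8 inputs held 3110323 and 3809355 reads, with 88.3% and 70.2% of them in the table. The miRNA miR-223, which is abundant in neutrophils, was at 3764 RPM in the neutrophil input, 454 RPM in the differentiated HOXB8 input and 3.74 RPM in the undifferentiated HOXB8 input. In the same order of inputs the myeloid miR-142a was at 593, 104 and 12.3 RPM. The myeloid miR-155 was at 15.8, 0.525 and 0.801 RPM, and the lymphoid miR-181a at 87.5, 32.0 and 9.08 RPM. No sequence of the progenitor miRNAs miR-196b, miR-10a, miR-10b, miR-99a and miR-125b, the erythroid miR-451a and miR-144, the lymphoid miR-150 or the endothelial miR-126a was matched, but the table is titled for sequences other than miRNA and may hold only a part of them.

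Many of the abundant sequences of both WGA libraries were pieces of rRNA that fell into families that end at the same base and start at different ones. They are printed 5′ to 3′ as the deposited table gives them, and the capitals mark the last 16 bases, which all members of a family share. The names 18S, 28S and 5′ external transcribed spacer come from general knowledge and from the places of the reads on the 45S record, since most records in the table carry only an identifier.
5′ external transcribed spacer, 21 bases, the highest sequence of neutrophil WGA: tcttaGATCGATGTGGTGCTC
18S, 29 bases, highest of its family in neutrophil WGA: agccgcctggataCCGCAGCTAGGAATAA
18S, 20 bases, highest of its family in differentiated HOXB8 WGA: gataCCGCAGCTAGGAATAA
18S, 32 bases, highest of its family in the neutrophil input: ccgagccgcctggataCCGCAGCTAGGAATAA
28S, 44 bases, highest of its family in neutrophil WGA: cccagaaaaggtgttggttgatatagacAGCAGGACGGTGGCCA
28S, 25 bases, highest of its family in differentiated HOXB8 WGA: gatatagacAGCAGGACGGTGGCCA
A further read is shown because it begins with the first bases of 18S and runs to the longest length in the table, 101 bases.
18S, 101 bases: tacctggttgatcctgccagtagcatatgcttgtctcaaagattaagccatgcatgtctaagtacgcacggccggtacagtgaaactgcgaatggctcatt

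Among RNA classes, tRNA and snoRNA fragments took a larger share of the neutrophil WGA table, and sequences that were placed only on the genome took a larger share of the differentiated HOXB8 WGA table. Transfer RNA, which carries amino acids to the ribosome, made up 8.79% of the RPM in neutrophil WGA and 0.869% in differentiated HOXB8 WGA, a 10.1-fold higher share (95% exact interval 10.0 to 10.2). Small nucleolar RNA (snoRNA), which guides chemical modification of rRNA, made up 4.03% in neutrophil WGA and 1.00% in differentiated HOXB8 WGA, 4.03-fold higher (3.99 to 4.06). Genome-mapped sequences held 1.68% in neutrophil WGA and 34.1% in differentiated HOXB8 WGA, which is 20.2-fold lower in neutrophil WGA (20.1 to 20.3).

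Ribosomal RNA was the leading class on both sides. It held 80.1% of the neutrophil WGA table and 56.4% of the differentiated HOXB8 WGA table, 1.42-fold higher (1.419 to 1.422). The order of these rRNA shares reversed once the 2 most abundant genome-mapped sequences were left out (log2 ratio -0.015), so the difference in rRNA share rests on them. The remaining classes at 1% or more of either table were lower in neutrophil WGA. The ncRNA class held 1.94% in neutrophil WGA and 3.99% in differentiated HOXB8 WGA, the miRNA class 1.25% and 1.54% in the same order of libraries, and the pre_miRNA class 0.731% and 1.09%.

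The inputs did not show the same picture in every class. The neutrophil over differentiated HOXB8 log2 ratio of the tRNA share was 3.34 after WGA and 1.51 in the inputs, so the tRNA difference was present before capture and larger after it. For snoRNA the log2 ratio was 2.01 after WGA and -0.56 in the inputs. For genome-mapped sequences it was -4.34 after WGA and -0.62 in the inputs. For the miRNA class it was -0.30 after WGA and 0.75 in the inputs, and for the pre_miRNA class -0.58 after WGA and 0.69 in the inputs.

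Class names in the table were not exclusive. Of the RPM of the ncRNA class, 84.1% in neutrophil WGA and 95.9% in differentiated HOXB8 WGA came from sequences identical to rRNA sequence. Of the RPM of the miRNA class the same held for 79.7% in neutrophil WGA and 53.7% in differentiated HOXB8 WGA. With such sequences left out, the ncRNA class was at 2773 RPM in neutrophil WGA and 1588 RPM in differentiated HOXB8 WGA, so the direction of the ncRNA class turned round. The miRNA class without them was at 2291 RPM in neutrophil WGA and 6900 RPM in differentiated HOXB8 WGA, and it kept its direction.

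**Figure D1:**
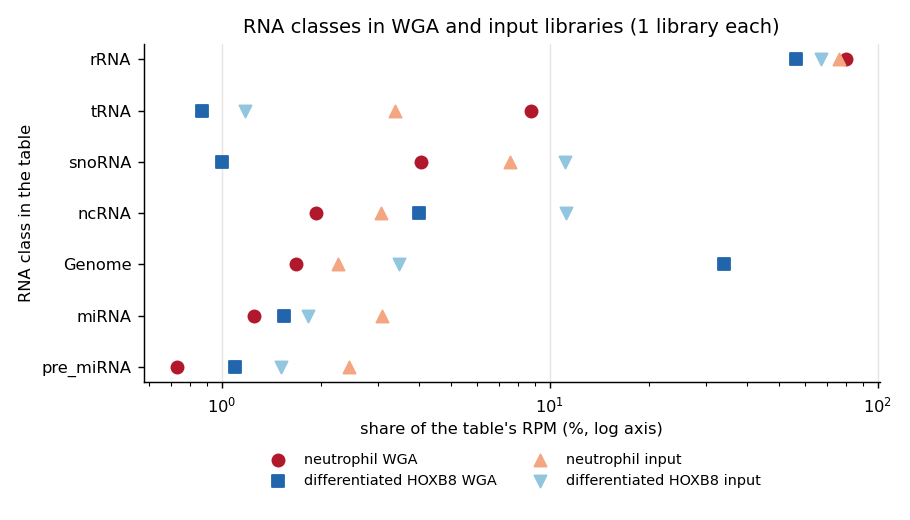
Share of the table's RPM (percent, log axis) for the 7 RNA classes that held 1% or more in either WGA library, with 1 point per library for neutrophil WGA, differentiated HOXB8 WGA and their inputs. The tRNA and snoRNA points of neutrophil WGA (8.79% and 4.03%) lie right of those of differentiated HOXB8 WGA (0.869% and 1.00%), and the Genome point of differentiated HOXB8 WGA (34.1%) lies far right of the other 3 libraries.

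Few sequences made up most of either WGA table, and the 2 libraries gave these sequences very different shares. The 10 highest sequences held 72.6% of the neutrophil WGA table and 75.1% of the differentiated HOXB8 WGA table, against 37.4% in the neutrophil input and 26.7% in the differentiated HOXB8 input. A read was found for 4966 sequences in neutrophil WGA and 8298 in differentiated HOXB8 WGA. The 2643 sequences with a read in both were 53.2% of the neutrophil WGA sequences and 31.9% of the differentiated HOXB8 WGA sequences, and held 96.2% of the RPM of neutrophil WGA and 91.5% of that of differentiated HOXB8 WGA. Summing the smaller of the 2 shares of every sequence, 19.8% of the table was common to the 2 WGA libraries, and 49.6% to the 2 inputs. The undifferentiated HOXB8 WGA library had 59.7% in common with differentiated HOXB8 WGA and 19.1% with neutrophil WGA.

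Of the 490 sequences at 100 RPM or more in either WGA library, 197 were 4-fold or more higher in neutrophil WGA (40.2%) and 214 were 4-fold or more higher in differentiated HOXB8 WGA (43.7%), together 83.9%. A library with no read was set at a floor of 3 reads, 0.302 RPM in neutrophil WGA and 0.351 RPM in differentiated HOXB8 WGA. By the same rule 369 of 791 input sequences (46.6%) differed 4-fold or more, 185 of them higher in neutrophils (23.4%) and 184 higher in differentiated HOXB8 (23.3%). Of the 197 sequences higher in neutrophil WGA, 43 were 4-fold or more higher in the neutrophil input, 21 were 4-fold or more higher in the differentiated HOXB8 input, 128 were within 4-fold and 5 had no input read. Of the 214 sequences higher in differentiated HOXB8 WGA, 27 were 4-fold or more higher in the neutrophil input, 69 in the differentiated HOXB8 input, 117 were within 4-fold and 1 had no input read. Many of these sequences are forms of the same piece: with those that share their last 16 bases summed, 82 of 369 families at 100 RPM or more were 4-fold or more higher in neutrophil WGA and 230 were higher in differentiated HOXB8 WGA.

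The called sequences fell apart by class. Among tRNA sequences 8 of 12 were 4-fold or more higher in neutrophil WGA and 2 higher in differentiated HOXB8 WGA. Among snoRNA sequences 14 of 23 were higher in neutrophil WGA and 3 in differentiated HOXB8 WGA, and among rRNA sequences 118 of 278 and 122 of 278, in the same order. Among miRNA-class sequences 5 of 32 were higher in neutrophil WGA and 20 in differentiated HOXB8 WGA, and among ncRNA-class sequences 21 of 66 and 37 of 66. Summed by annotated record, 49 of 216 records at 100 RPM or more were 4-fold or more higher in neutrophil WGA (22.7%) and 66 were higher in differentiated HOXB8 WGA (30.6%).

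**Figure D2:**
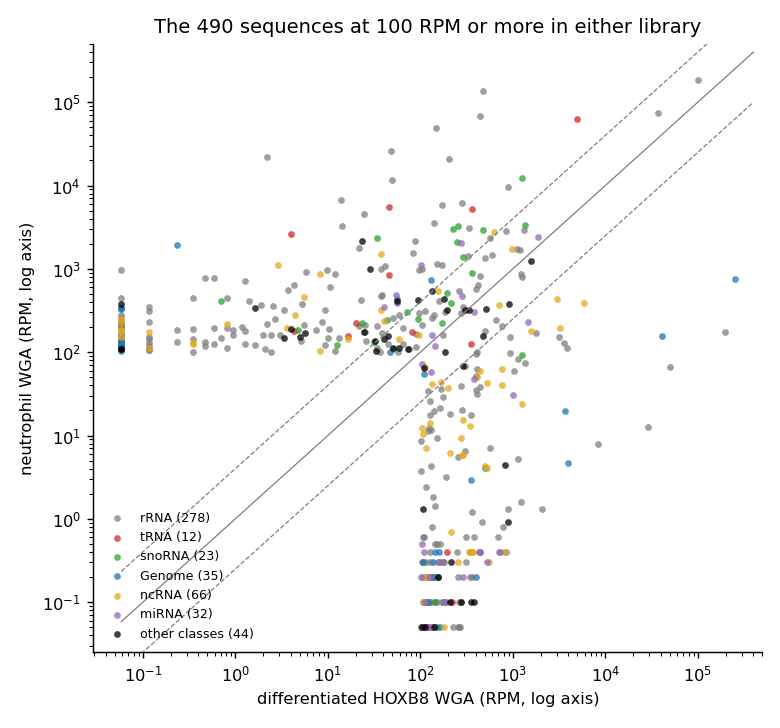
RPM of the 490 sequences at 100 RPM or more in either library, in neutrophil WGA (vertical log axis) against differentiated HOXB8 WGA (horizontal log axis), coloured by RNA class with the number of sequences in brackets. The solid line marks equal RPM, dashed lines mark a 4-fold difference, and a library with 0 reads is drawn at 0.5 reads. The points form 2 arms, with 42 sequences at 0 reads in differentiated HOXB8 WGA and 34 at 0 reads in neutrophil WGA.

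Captured reads were longer in neutrophils. The RPM-weighted mean read length was 39.1 bases in neutrophil WGA and 21.03 bases in differentiated HOXB8 WGA, a difference of 18.04 bases, while the inputs had 29.2 and 27.7 bases. Reads of 40 bases or more were 24.9% of the neutrophil WGA table and 0.869% of the differentiated HOXB8 WGA table, against 14.2% and 13.7% in the inputs. Reads under 20 bases were 17.1% in neutrophil WGA and 42.1% in differentiated HOXB8 WGA, against 28.97% and 30.4% in the inputs.

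Single lengths carried most of this. Reads of 95 bases held 16.6% of the neutrophil WGA table and 0.056% of the differentiated HOXB8 WGA table. Reads of 16 bases held 3.61% of neutrophil WGA and 29.6% of differentiated HOXB8 WGA, and reads of 25 bases 0.389% and 21.5%. Without the reads of 95 bases the difference in mean length was 6.98 bases. Leaving out the 10 highest sequences of each library gave a difference of 10.9 bases. Among the 90 sequences of 40 bases or more at 100 RPM in either library, 86 were 4-fold or more higher in neutrophil WGA and 3 in differentiated HOXB8 WGA. Among the 158 sequences of 16 to 19 bases, 35 were higher in neutrophil WGA and 89 in differentiated HOXB8 WGA. Over all 490 sequences at that level the shares were 40.2% and 43.7%, in the same order. Forms of the same piece were counted singly here.

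**Figure D3:**
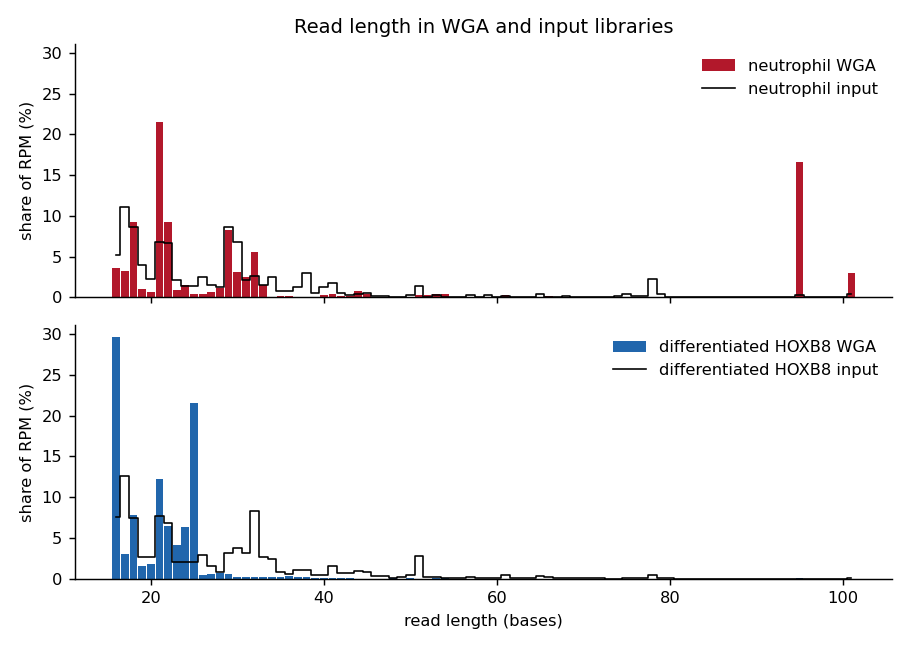
Share of the table's RPM (percent) at each read length from 16 to 101 bases, for neutrophil WGA (upper panel, filled bars) and differentiated HOXB8 WGA (lower panel, filled bars), with the matching input as a black line. Neutrophil WGA has peaks at 21 bases (21.6%) and 95 bases (16.6%), and differentiated HOXB8 WGA at 16 bases (29.6%) and 25 bases (21.5%).

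The 5′ external transcribed spacer, a stretch that is cut off the precursor and is not part of the ribosome, was the largest rRNA part in neutrophil WGA. It held 29.8% of the neutrophil WGA table and 14.9% of the differentiated HOXB8 WGA table, but 1.59% and 3.70% of the inputs. Nearly all of it was 1 family of reads ending at base 672 of the 45S record, which summed to 269349 RPM in neutrophil WGA and 145920 RPM in differentiated HOXB8 WGA over all class names. The 21-base form starts at base 652. The 21-base spacer read shown above was at 183263 RPM in neutrophil WGA and 99821 RPM in differentiated HOXB8 WGA, 1.84-fold higher, and at 10288 RPM in the neutrophil input and 18130 RPM in the differentiated HOXB8 input. Reads of 21 or 22 bases were 97.1% of this family in neutrophil WGA and 96.1% in differentiated HOXB8 WGA. The spacer family thus peaked at 21 bases on both sides, stood above its input on both sides, and was within 4-fold between them.

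The 18S part, the RNA of the small ribosomal subunit, was higher in neutrophil WGA. It stood at 246268 RPM in neutrophil WGA and 27877 RPM in differentiated HOXB8 WGA, 8.83-fold higher, while the inputs ran the other way with 60249 RPM in neutrophils and 168402 RPM in differentiated HOXB8. Its leading family, inside 18S and not at one of its ends, held 195552 RPM in neutrophil WGA and 5068 RPM in differentiated HOXB8 WGA. The 29-base read was at 68765 RPM in neutrophil WGA and 441 RPM in differentiated HOXB8 WGA, 156-fold higher (151 to 161), with 1277 RPM in the neutrophil input and 4987 RPM in the differentiated HOXB8 input. The 32-base read, highest of the family in both inputs at 16991 RPM in neutrophils and 53950 RPM in differentiated HOXB8, was at 48396 RPM in neutrophil WGA and 148 RPM in differentiated HOXB8 WGA. Reads of 29 to 33 bases made up 90.6% of the family in neutrophil WGA and 17.96% in differentiated HOXB8 WGA, where the 20-base read led with 1038 RPM, against 59.7 RPM in neutrophil WGA.

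The 101-base read that opens with the first base of 18S was rare outside neutrophil WGA. It was at 22147 RPM in neutrophil WGA and 2.23 RPM in differentiated HOXB8 WGA (19 reads), 9951-fold higher (6372 to 16529), and at 45.01 RPM in the neutrophil input and 3.94 RPM in the differentiated HOXB8 input. Undifferentiated HOXB8 WGA had 1.99 RPM. Since 101 bases is the longest length in the table, the 3′ end of this RNA is not seen. Without the leading family the 18S part was at 50717 RPM in neutrophil WGA and 22808 RPM in differentiated HOXB8 WGA, and without the family of the 101-base read as well at 27710 RPM and 22806 RPM, 1.22-fold higher.

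The 28S part, the RNA of the large subunit, was lower in neutrophil WGA, at 30799 RPM against 346792 RPM in differentiated HOXB8 WGA, 11.3-fold lower, with 82084 RPM in the neutrophil input and 137178 RPM in the differentiated HOXB8 input. Its leading family ended at base 9903 of the 45S record in both. The 25-base read was at 176.4 RPM in neutrophil WGA and 196610 RPM in differentiated HOXB8 WGA, 1115-fold lower in neutrophil WGA (1064 to 1169), and at 1472 RPM in the neutrophil input and 1198 RPM in the differentiated HOXB8 input. The 44-base read with the same last base went the other way, with 6759 RPM in neutrophil WGA and 13.9 RPM in differentiated HOXB8 WGA, 485-fold higher (405 to 585), and 3348 RPM and 5809 RPM in the inputs. Reads of 22 to 25 bases were 1.41% of the family in neutrophil WGA and 98.8% in differentiated HOXB8 WGA, and reads of 40 bases or more were 68.0% and 0.0931%. At this 28S end the 44-base form was thus higher in neutrophil WGA and the 25-base form higher in differentiated HOXB8 WGA. The shortest forms did not go with the 25-base form. Reads under 20 bases were 26.9% of the family in neutrophil WGA and 0.552% in differentiated HOXB8 WGA. Those of 17 bases were at 3567 RPM and 139.5 RPM in the same order.

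The rest of 28S, without that family, was at 9717 RPM in neutrophil WGA and 55714 RPM in differentiated HOXB8 WGA, 5.73-fold lower in neutrophil WGA, and some of its pieces were nearly missing there. A 28-base read at base 11772 was at 1.31 RPM in neutrophil WGA and 2051 RPM in differentiated HOXB8 WGA, and a 38-base read at base 8253 at 0.403 RPM and 836 RPM. Undifferentiated HOXB8 WGA held 3319 RPM and 2934 RPM of these reads. When 45S was divided into stretches of 200 bases by where reads start, 28 stretches reached 1000 RPM in either WGA library, of which 2 were 4-fold or more higher in neutrophil WGA and 17 were higher in differentiated HOXB8 WGA. In 28S these were 0 and 14 of 17 stretches, and in 18S 2 and 3 of 9. Of the 14 stretches of 28S, 11 were 4-fold or more lower in the neutrophil input than in the differentiated HOXB8 input too. The 28S stretch that starts at base 12601 had 4816 RPM in neutrophil WGA and 3035 RPM in differentiated HOXB8 WGA.

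The 5.8S part was scarce after WGA in both cells. It held 1.97% of the neutrophil WGA table and 0.627% of the differentiated HOXB8 WGA table, against 52.3% of the neutrophil input and 14.5% of the differentiated HOXB8 input. It was the leading RNA of the neutrophil input, at 461806 RPM, and stood at 17734 RPM in neutrophil WGA. The internal transcribed spacers, which are also cut out of the precursor, were scarce in the WGA libraries and in the inputs. The first was at 0.101 RPM (1 read) in neutrophil WGA and 60.8 RPM in differentiated HOXB8 WGA, and the second at 13.3 RPM in neutrophil WGA and 60.4 RPM in differentiated HOXB8 WGA. In the neutrophil and differentiated HOXB8 inputs the first was at 3.86 and 3.68 RPM, and the second at 4.82 and 15.0 RPM. Unlike 5.8S, they were thus higher after WGA than in the input, except the first in neutrophils.

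**Figure D4:**
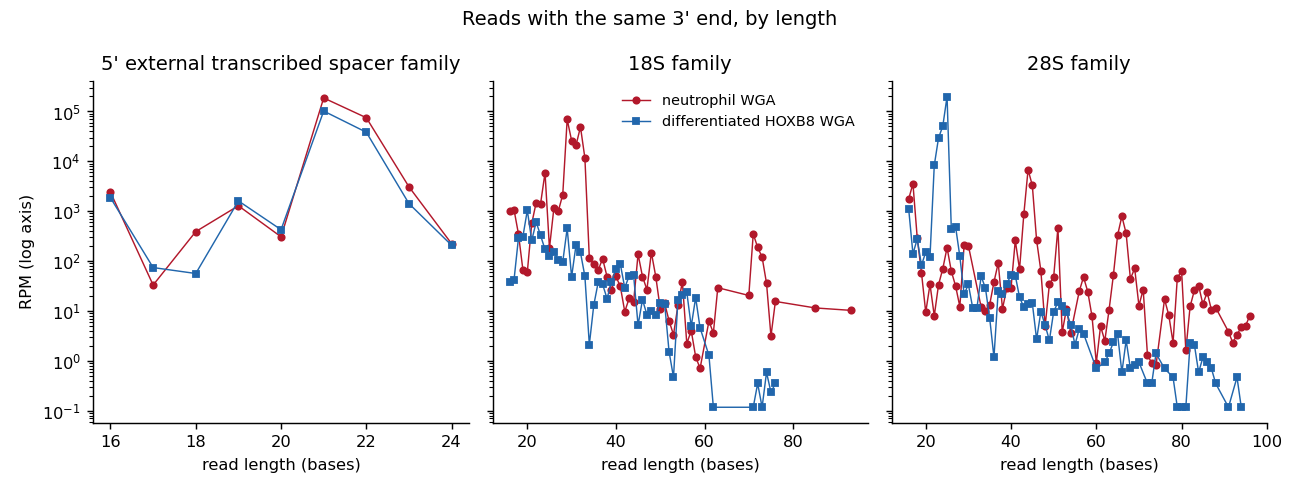
RPM (log axis) by read length (bases) of the reads that share their last 16 bases with the leading 5′ external transcribed spacer, 18S and 28S reads, in neutrophil WGA (circles) and differentiated HOXB8 WGA (squares); lengths with 0 reads are not drawn. The spacer curves both peak at 21 bases, with 186708 RPM in neutrophil WGA and 101914 RPM in differentiated HOXB8 WGA. The 18S peak is at 29 bases in neutrophil WGA and 20 bases in differentiated HOXB8 WGA, and the 28S peak at 44 bases in neutrophil WGA and 25 bases in differentiated HOXB8 WGA.

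These families were among 45 that reached 1000 RPM in either WGA library, and the 45 held 94.6% of the neutrophil WGA table and 86.4% of the differentiated HOXB8 WGA table. The mean length was longer in neutrophil WGA in 29 of them and shorter in 15. The families were formed after the values were seen.

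The tRNA signal was mostly 1 kind of 18-base read from the 5′ end of glycine tRNA, named from general knowledge of its sequence. The leading read and its closest relatives are shown with the differing base in capitals, and the 28-base read is the 5′ end of a glutamate tRNA.
Glycine tRNA, leading read: gcattggtggttcagtgg
Glycine tRNA, relative with G6T: gcattTgtggttcagtgg
Glycine tRNA, relative with T5G: gcatGggtggttcagtgg
Glutamate tRNA, 28 bases: tcccatatggtctagcggttaggattcc
Positions are counted from 1 at the 5′ end, the base of the leading read first. The leading read was at 62366 RPM in neutrophil WGA and 4954 RPM in differentiated HOXB8 WGA, 12.6-fold higher (12.5 to 12.7), and at 19227 RPM in the neutrophil input and 2792 RPM in the differentiated HOXB8 input. It made up 78.9% of the tRNA class in neutrophil WGA and 58.9% in differentiated HOXB8 WGA. The G6T relative, at 5187 RPM in neutrophil WGA and 359 RPM in differentiated HOXB8 WGA, was 14.4-fold higher, close to the leading read. The T5G relative did not, with 2614 RPM in neutrophil WGA and 3.98 RPM in differentiated HOXB8 WGA, 656-fold higher (470 to 948), and it differed in the inputs too, with 2011 RPM in neutrophils and 10.8 RPM in differentiated HOXB8.

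The glutamate tRNA read was at 5513 RPM in neutrophil WGA and 45.4 RPM in differentiated HOXB8 WGA, 121-fold higher (110 to 134), and at 261 RPM in the neutrophil input and 3.41 RPM in the differentiated HOXB8 input. Without the glycine reads, the tRNA class was at 7672 RPM in neutrophil WGA and 2894 RPM in differentiated HOXB8 WGA, 2.65-fold higher, and 1.23-fold higher in the inputs. That difference rested on the glutamate read: without it as well, the rest of the class was at 2159 RPM in neutrophil WGA and 2848 RPM in differentiated HOXB8 WGA, 1.32-fold lower in neutrophil WGA. Reads that end in CCA, the tail added to mature tRNA, were the reverse case, at 9.57 RPM in neutrophil WGA and 659 RPM in differentiated HOXB8 WGA, although the inputs held 3258 RPM in neutrophils and 1199 RPM in differentiated HOXB8. Reads that start at bases 50 to 56 of their record, where the 5′ ends of the reads shown above lie, were 99.3% of the tRNA class in neutrophil WGA and 76.96% in differentiated HOXB8 WGA, against 84.8% and 42.7% in the inputs.

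The snoRNA reads of both WGA libraries were 5′ pieces that carry box C, the motif at the start of the C/D family that guides methylation. TGATGA, searched on both strands, was in 48.1% of the 551 snoRNA sequences and 0.387% of the 17834 other sequences, and its reverse complement in 0% and 0.342%. By RPM, TGATGA sequences were 84.6% of the snoRNA class in neutrophil WGA and 78.5% in differentiated HOXB8 WGA, against 6.47% in the neutrophil input and 1.94% in the differentiated HOXB8 input. Reads that start at bases 50 to 56 of the record were 92.4% in neutrophil WGA and 80.5% in differentiated HOXB8 WGA, against 5.99% and 1.32% in the inputs. The shift to 5′ pieces was thus seen after WGA in both cells, while the amount after WGA was larger in neutrophils. The snoRNA share itself was lower after WGA than in the input in both cells. It went from 7.54% to 4.03% in neutrophils and from 11.1% to 1.00% in differentiated HOXB8.

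The highest snoRNA record of neutrophil WGA, snoRNA__URS0001BC13C8, was at 15493 RPM in neutrophil WGA and 1731 RPM in differentiated HOXB8 WGA, with 2101 RPM and 402 RPM in the inputs. Its 17-base read alone was at 12465 RPM in neutrophil WGA and 1244 RPM in differentiated HOXB8 WGA. The record snoRNA__URS0001BC199C, read mainly as pieces of 53 and 54 bases, was at 6360 RPM in neutrophil WGA and 553 RPM in differentiated HOXB8 WGA. The record snoRNA__URS00006B90BB had the largest ratio of those at 1000 RPM or more, with 2401 RPM in neutrophil WGA and 34.1 RPM in differentiated HOXB8 WGA, and its inputs were at 58.5 RPM and 0.788 RPM. The record snoRNA__URS0001BC8748 went the other way, at 92.6 RPM in neutrophil WGA and 1263 RPM in differentiated HOXB8 WGA. Of the 21 snoRNA records at 100 RPM or more, 7 were 4-fold or more higher in neutrophil WGA and 6 in differentiated HOXB8 WGA. Over all 216 records at that level the shares were 22.7% and 30.6%, so the snoRNA records did not stand out. Of the 6 snoRNA records at 1000 RPM or more, 4 were 4-fold or more higher in neutrophil WGA and 1 in differentiated HOXB8 WGA. In the same order these were 11 and 0 of 27 rRNA records, 4 and 0 of 4 tRNA records and 1 and 4 of 12 ncRNA records. They were 0 and 6 of 16 Genome records, and 0 on either side of 4 miRNA and 3 pre_miRNA records.

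Spliceosomal snRNA was 0.608% of the neutrophil WGA table and 0.245% of the differentiated HOXB8 WGA table, 2.48-fold higher (2.44 to 2.52), and 1.40-fold higher in the inputs. Different snRNAs led on each side. A 24-base read resembling U2, the snRNA that pairs with the branch site, was at 2148 RPM in neutrophil WGA and 23.2 RPM in differentiated HOXB8 WGA. An 18-base read resembling the 3′ end of U1, which pairs with the 5′ splice site, was at 0.907 RPM in neutrophil WGA and 896 RPM in differentiated HOXB8 WGA, with 50.5 RPM and 138 RPM in the inputs. U1 and U2 were named from general knowledge of their sequences.

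The other abundant noncoding RNAs of the cell were rare. The SRP RNA class, the RNA of the signal recognition particle, was at 498 RPM in neutrophil WGA and 1009 RPM in differentiated HOXB8 WGA. The table lists 1 sequence of Y RNA, 2 of RNase P RNA and 1 of RNase MRP RNA, and the values below are for those sequences alone. The Y RNA sequence had 0 reads in both WGA libraries, and the inputs held 0.322 RPM and 3.68 RPM. The floor of 3 reads is 0.302 RPM in neutrophil WGA and 0.351 RPM in differentiated HOXB8 WGA, and it is not an upper limit. RNase P RNA sequences were at 4.23 RPM in neutrophil WGA and 0 reads in differentiated HOXB8 WGA, and the RNase MRP RNA sequence at 0 reads in both. Vault RNA and the single snRNA and tRNA genes are not named by the table's records, and no value is given for them.

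The genome-mapped class of differentiated HOXB8 WGA was nearly all 2 short sequences. A 16-base sequence placed at chr7:81731500-81731515 (mm10, reverse strand, inside the long noncoding RNA gene Gm42400) was at 755 RPM in neutrophil WGA and 252595 RPM in differentiated HOXB8 WGA. It was at 10282 RPM in the neutrophil input and 6041 RPM in the differentiated HOXB8 input, and so was higher in the neutrophil input than in neutrophil WGA. An 18-base sequence placed at chrX:142215582-142215599 (mm10, reverse strand, in no RefSeq gene) was at 157 RPM in neutrophil WGA and 41535 RPM in differentiated HOXB8 WGA, and at 2018 RPM and 1441 RPM in the inputs. Undifferentiated HOXB8 WGA held 193172 RPM and 86844 RPM of these sequences. Whether RNA of these loci, or mouse RNA at all, is their source was not tested.

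Those 2 sequences made up 6.02% of the class in neutrophil WGA and 89.3% in differentiated HOXB8 WGA. Without them the class was at 14232 RPM in neutrophil WGA and 35413 RPM in differentiated HOXB8 WGA, 2.49-fold lower in neutrophil WGA. At 20 bases or more it was at 9590 RPM in neutrophil WGA and 10857 RPM in differentiated HOXB8 WGA, 1.13-fold lower in neutrophil WGA. The highest genome-mapped sequence of neutrophil WGA was a 52-base sequence at chr17:39846994-39847045 (mm10, reverse strand), inside the 18S ribosomal gene Rn18s-rs5, with 1955 RPM in neutrophil WGA and 0.234 RPM in differentiated HOXB8 WGA, and 252 RPM and 815 RPM in the inputs. As spelled in the table it is the reverse complement of rRNA-class sequence in 32 of its 33 stretches of 20 bases. Whether the table turns reads of the reverse strand round is not given in the sources used here, so the strand of that RNA is not known.

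Mature miRNAs are short RNAs that guide silencing of messenger RNA. Those listed in the table were almost missing from neutrophil WGA although the neutrophil input was rich in them. The table is titled for sequences other than miRNA and may hold only a part of them, so the whole miRNA content of each library is not known. The RefSeq table (GRCm38.p6, the assembly also called mm10) matched 89 mature miRNAs to 230 table sequences of 18 bases or more, allowing 2 bases at the start and 4 at the end. Those sequences summed to 43.4 RPM in neutrophil WGA and 6359 RPM in differentiated HOXB8 WGA, 146-fold lower in neutrophil WGA, and to 35011 RPM in the neutrophil input and 5693 RPM in the differentiated HOXB8 input, 6.15-fold higher in neutrophils. Against its own input the sum was 806-fold lower in neutrophil WGA, and 1.12-fold higher in differentiated HOXB8 WGA. These are ratios of RPM over the whole library. In differentiated HOXB8 96.7% of the WGA reads and 70.2% of the input reads were in the table, and the direction of the 1.12-fold difference does not hold for table shares.

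The mature sequences of miRNAs high in differentiated HOXB8 WGA, and of miR-223-3p as the neutrophil marker, are printed from RefSeq with the seed, bases 2 to 8, in capitals. MiR-25-3p and miR-92a-3p share a seed.
miR-25-3p: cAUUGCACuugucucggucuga
miR-92a-3p: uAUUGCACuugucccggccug
miR-24-3p: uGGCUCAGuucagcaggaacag
miR-27b-3p: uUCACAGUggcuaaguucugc
miR-181a-5p: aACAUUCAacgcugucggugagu
let-7c-5p: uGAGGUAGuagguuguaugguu
miR-223-3p: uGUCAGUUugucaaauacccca
MiR-25-3p was at 4.54 RPM in neutrophil WGA and 900 RPM in differentiated HOXB8 WGA, 198-fold lower in neutrophil WGA (148 to 272), and at 1506 RPM in the neutrophil input and 287 RPM in the differentiated HOXB8 input. MiR-92a-3p was at 0.705 RPM in neutrophil WGA and 596 RPM in differentiated HOXB8 WGA, with 412 RPM and 112 RPM in the inputs. MiR-24-3p was at 0.605 RPM in neutrophil WGA and 651 RPM in differentiated HOXB8 WGA, and miR-27b-3p at 0.302 RPM (3 reads) and 548 RPM. Undifferentiated HOXB8 WGA held 476 RPM of miR-25-3p and 637 RPM of miR-27b-3p.

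MiR-223-3p was at 0.202 RPM in neutrophil WGA (2 reads) and 59.2 RPM in differentiated HOXB8 WGA, a ratio of 293 with a counting interval of 80.8 to 2430, yet at 3763 RPM in the neutrophil input and 450 RPM in the differentiated HOXB8 input. The let-7 family, whose 5p members share the seed of let-7c-5p, summed to 9.57 RPM over 9 mature forms in neutrophil WGA and 895 RPM in differentiated HOXB8 WGA, and to 10507 RPM and 1166 RPM in the inputs. MiR-93-5p had no read in neutrophil WGA and 311 RPM in differentiated HOXB8 WGA. With neutrophil WGA set at the floor of 3 reads it was 1030-fold lower there, and this floor is not an upper limit. Of the 59 miRNAs at 10 RPM or more in the neutrophil input, 46 were 4-fold or more lower in neutrophil WGA than in differentiated HOXB8 WGA, 0 were higher and 13 had no read in either WGA library. Among all 2016 sequences at that input level, 336 were 4-fold or more lower in neutrophil WGA (16.7%), 591 were higher (29.3%) and 644 had no read in either. This choice by input level was made after the values were seen. The highest matched miRNA of neutrophil WGA, miR-200c-3p, was at 9.67 RPM there (96 reads) and at 0 reads in differentiated HOXB8 WGA. It was at 2.25 RPM in the neutrophil input and 2.10 RPM in the differentiated HOXB8 input.

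**Figure D5:**
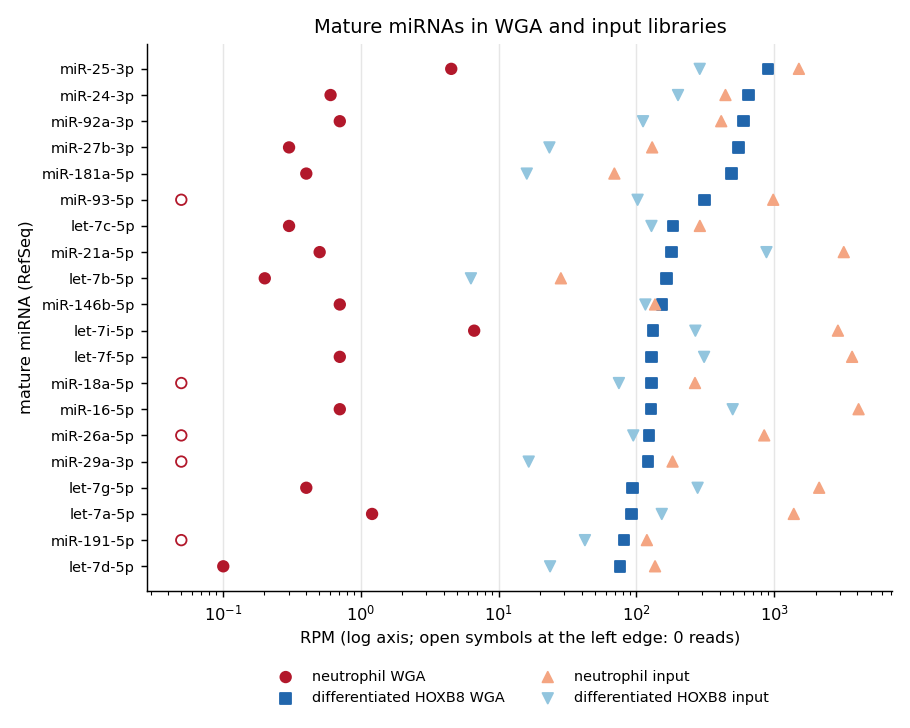
RPM (log axis) of the 20 mature miRNAs highest in differentiated HOXB8 WGA, with 1 point per library for neutrophil WGA, differentiated HOXB8 WGA, neutrophil input and differentiated HOXB8 input. Open symbols at the left edge are 0 reads. The neutrophil WGA points lie left of all others in each miRNA, between 0 and 6.65 RPM, while the neutrophil input points lie between 28.3 and 4079 RPM; the miRNAs were picked by their level in differentiated HOXB8 WGA.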

How the data were processed

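The deposited small RNA table holds RPM values of unique sequences, scaled by the authors to the reads of the whole library. Its genome build is mm10, per the submitters' processing notes, and the aligner, trimming and filters are not given in the sources used here. Whole reads were recovered from the RPM steps (every value lay within 0.001 of a whole read), and the 28 sequences with an N were kept. All 9 per-library columns were mapped to samples. A share is a percentage of all RPM that the table lists for that library, with exact Clopper-Pearson 95% intervals, and ratios have exact conditional intervals (counting error only). With 1 library a side no test was run. Classes at 1% or more of either WGA table were described, with the 10 highest sequences of each WGA library, the 10 largest ratios per direction at 500 RPM or more, and records by the same rule at 1000 RPM. Reads of rRNA records were placed on the 45S record by exact matches and given to a part by their middle base. Python 3.11.15 with numpy 2.4.6, pandas 2.3.3, scipy 1.17.1 and matplotlib 3.10.9 was used. The ratio code was tested on simulated data. The members and lists were chosen with earlier results of these data known. The RNA-seq tables were not used here. Reads of 1 further rRNA are not reported here.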

Additional observations from a re-analysis of the deposited data

Results flagged for a closer look

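The 7 classes at 1% or more of either WGA table were compared with their inputs. In 3 of them the share moved in opposite directions between input and WGA in the 2 kinds of cell. The difference was not tested, since each value compares 1 library with 1 library. The share of genome-mapped sequences had a log2 ratio of WGA over input of -0.42 in neutrophils and 3.29 in differentiated HOXB8 cells. The tRNA share had 1.38 in neutrophils and -0.44 in differentiated HOXB8 cells. The rRNA share had 0.0688 in neutrophils and -0.248 in differentiated HOXB8 cells, and this last pair is small beside the changes of its parts. Smaller classes moved in opposite directions too. The antisense_RNA share had 0.98 in neutrophils and -1.20 in differentiated HOXB8 cells. In the same order precursor_RNA had 0.95 and -1.26, and sRNA 1.06 and -0.74. For tRNA and rRNA the opposite directions held for shares of the table only. In RPM of the whole library both classes were higher after WGA than in the input in both kinds of cell. In differentiated HOXB8 cells rRNA was at 545491 RPM after WGA and 470282 RPM in the input, and tRNA at 8404 RPM and 8275 RPM. Of the reads of those libraries, 96.7% after WGA and 70.2% in the input were in the table.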

How the results depend on the processing

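No paired analysis was possible because each group is 1 library and no test was run. Every value is a neutrophil WGA over differentiated HOXB8 WGA log2 ratio of class shares unless said otherwise, and alternatives that count rRNA-identical sequences as rRNA, that drop the 2 leading genome-mapped sequences or that sum families were chosen after seeing the data. Counting each distinct sequence once reversed the miRNA (0.27), pre_miRNA (0.83), rRNA (-0.14) and snoRNA (-0.41) ratios, and gave -0.12 for Genome, -0.19 for ncRNA and 0.24 for tRNA. Moving rRNA-identical sequences into rRNA reversed ncRNA (0.91) and gave -4.43 for Genome, -1.49 for miRNA, -0.63 for pre_miRNA and 0.43 for rRNA. Without the 2 genome-mapped sequences rRNA reversed (-0.015), and the others were -1.73 for Genome, -0.82 for miRNA, -1.56 for ncRNA, -1.10 for pre_miRNA, 1.49 for snoRNA and 2.82 for tRNA. RPM of the whole library gave -4.44 for Genome, -0.40 for miRNA, -1.15 for ncRNA, -0.69 for pre_miRNA, 0.40 for rRNA, 1.90 for snoRNA and 3.23 for tRNA. Without each library's 10 highest sequences the ratios were -1.26 for Genome, -0.44 for miRNA, -0.94 for ncRNA, -0.72 for pre_miRNA, 0.16 for rRNA, 1.26 for snoRNA and 2.24 for tRNA. At 20 bases or more they were -0.59 for Genome, -0.93 for miRNA, -1.34 for pre_miRNA, 0.024 for rRNA, 1.00 for snoRNA and 2.56 for tRNA. The cause of these shifts was not tested. The WGA log2 ratio minus the input log2 ratio was -3.71 for Genome, -1.05 for miRNA, 0.83 for ncRNA, -1.27 for pre_miRNA, 0.32 for rRNA, 2.57 for snoRNA and 1.82 for tRNA. In RPM of the whole library it reversed for rRNA (-0.12) and was -4.15 for Genome, -1.48 for miRNA, 0.39 for ncRNA, -1.71 for pre_miRNA, 2.14 for snoRNA and 1.39 for tRNA, and without the 10 highest sequences -0.86 for Genome, -1.41 for miRNA, 0.44 for ncRNA, -1.64 for pre_miRNA, 0.025 for rRNA, 1.37 for snoRNA and 1.998 for tRNA. Sequences 4-fold or more higher in neutrophil WGA and in differentiated HOXB8 WGA numbered 59 and 46 at 500 RPM or more, 2499 and 5955 with no minimum, and 82 and 230 as families. At the main setting of 100 RPM they numbered 197 and 214, so the side with more sequences changed at 500 RPM. Records numbered 21 and 11 at 1000 RPM or more, against 49 and 66 at 100 RPM, and the larger side changed there too. The cause of these changes with the minimum, and of the fall on the neutrophil side as families, was not tested. The other settings for these counts, a ratio of 2 or 8, table shares, centring on the median and RPM + 1, kept them within 1.5 times. The difference in mean read length was 6.98 bases without reads of 95 bases, a setting chosen after seeing the data, 10.9 bases without the 10 highest sequences and 4.57 bases with each distinct sequence counted once. The main limits are 1 library per side, inputs that were size-selected when no such step is given for WGA, short reads that can match several records, and the upper read length of 101 bases.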
